A study of Homo sapiens with 12 samples.

Results

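Endothelial cells adapted to low folate were compared with replete cells, both untreated, across all genes of the array. The comparison set the arrays labelled Lo control against those labelled Hi control, 6 of the 12 arrays of the series, and covered 18417 genes. All samples came from EA.hy 926, a human hybrid of umbilical vein endothelium and the lung carcinoma line A549. Hi control cells were kept in Medium 199 raised to 9 uM folic acid, the usual level for this line. Lo control cells had been adapted to the 23 nM folic acid that Medium 199 holds by itself. Both media also received serum of fetal calves, added amino acids, 2 antibiotics (penicillin G and gentamycin) and an antifungal agent. Cultures were taken to confluence and their medium was changed, and neither control group received the drug. The other 6 arrays were Hi and Lo cells given 0.5 uM pemetrexed (PMX), an antifolate, for 48 h, starting 24 h after the medium change. Each of the 4 groups had 3 biological replicates. The Lo cells were a separately adapted culture of 1 line, so folate level and any other difference between the 2 cultures cannot be told apart, and p-values measure the spread between replicate cultures of that line.

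Folates carry one-carbon units for the making of purines and thymidylate and for the remethylation of homocysteine to methionine, the source of S-adenosylmethionine. That compound is the methyl donor for DNA, histones and many other molecules. Endothelial cells line blood vessels and are known for their anticoagulant and secretory functions, their response to vascular endothelial growth factor and their recruitment of leukocytes during inflammation.

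The values were log2 expression values per probe set, and a difference of 1 is 2-fold. Array medians lay between 7.24 and 7.33 over the 12 arrays. A call is a limma p-value under 0.05 after Benjamini-Hochberg adjustment, and errors after ± are standard errors (SE). With all 6 control arrays no gene was called, with 387 genes (2.1%) at an unadjusted p under 0.05 and a smallest adjusted p of 0.9995. With replicates 1 and 2 only, 1320 of the 18417 genes (7.17%) were called, 676 higher in Lo cells (3.67%) and 644 lower (3.5%). Of these, 152 (0.825%) differed at least 2-fold, 102 upward (0.554%) and 50 downward (0.271%). With the replicate number as a block 2422 genes (13.2%) were called, 1240 higher and 1182 lower, among them all 1320. Counts of control calls for gene lists below are to be read against the share of all genes in the same direction. Those with the block are to be read against its 1240 higher or 1182 lower among the 18417 genes. The count fell to 549 without Hi control replicate 1, 858 without Hi control replicate 2, 636 without Lo control replicate 1 and 596 without Lo control replicate 2, and to 756 without variance moderation.

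The arrays labelled replicate 3 set these 2 results apart. Among the 1320 genes, Lo control replicate 3 minus Hi control replicate 3 had the opposite sign in 1308 and the same sign in 12. On a scale where the mean of Hi controls 1 and 2 is 0 and that of Lo controls 1 and 2 is 1, the array labelled Hi control replicate 3 had a median position of 1.00 and the array labelled Lo control replicate 3 one of 0.07. The 3 treated Hi arrays had medians of -0.02, -0.01 and 0.08, and the 3 treated Lo arrays 1.20, 1.22 and 1.21. The labels were kept as given. Whether these 2 labels were exchanged cannot be told from the files, and every value over all 6 arrays rests on the labels as they stand. With all 6 arrays 1318 of the 1320 genes had the same sign of Lo minus Hi, with a median size of 0.20 against 0.53 with replicates 1 and 2. The means over all 6 arrays include replicates 1 and 2, so this shared sign is not separate evidence. Leaving out both arrays was decided with these data in view, so every p-value from replicates 1 and 2 is conditional on that choice. Below, rose and fell refer to calls with replicates 1 and 2, and values per array are listed in the order of replicates 1, 2 and 3 as labelled.

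**Figure D1:**
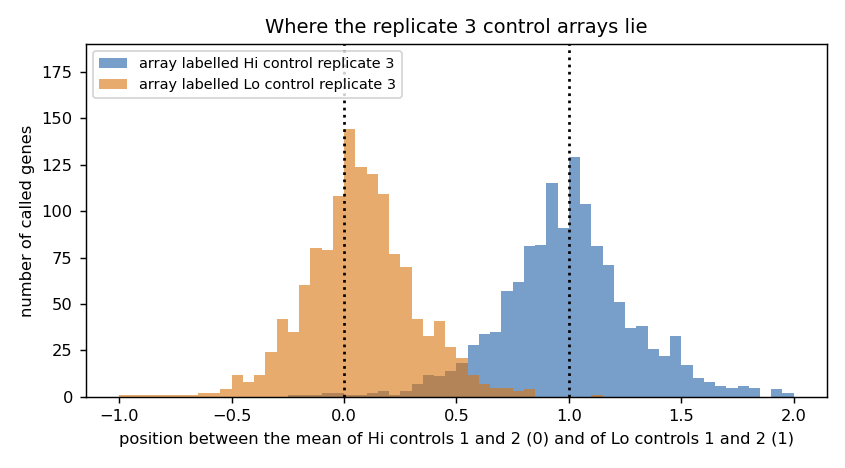
Position of both arrays labelled replicate 3, for each of the 1320 called genes, between the mean of Hi controls 1 and 2 (0) and the mean of Lo controls 1 and 2 (1). The y axis counts genes, and values beyond the ends of the x axis are drawn in the end bins. The Hi-labelled array centres on 1.00 and the Lo-labelled array on 0.07.

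The largest rise was that of AMTN, which encodes amelotin, an enamel matrix protein. Its log2 values were 6.36, 7.14 and 11.58 in the Hi control arrays and 10.95, 11.31 and 6.99 in the Lo control arrays. The difference was 4.38 ± 0.39 with replicates 1 and 2 (20.8-fold, adjusted p = 4.1e-05) and 1.39 with all 6 arrays. CLCA2, a regulator of chloride conductance, read 5.82, 5.77 and 9.25 in Hi cells and 9.38, 9.48 and 5.90 in Lo cells. In both genes the replicate 1 and 2 arrays of the groups lay far apart, and each replicate 3 array lay with the other group. CLCA2 rose by 3.63 ± 0.12 (12.4-fold, adjusted p = 3.33e-08). No background signal was used here, so it is not known which low values lie above background, and folds hold for the values as deposited. This limit applies to CLCA2 in Hi cells and to ATP6V0D2, AKR1B10 and EMCN, given or counted below. It applies as well to other genes with low values in 1 group, among them AMTN, IL1B, POSTN, CDH10, SERPINB7 and ABCA12. SPP1, the secreted phosphoprotein osteopontin, read 6.49, 6.72 and 9.47 against 9.02, 9.54 and 6.84 and rose by 2.67 ± 0.27. The other 9 of the 12 largest rises were CPA4 (a carboxypeptidase, 5.68-fold), SULT1B1 (a sulfotransferase, 5.49-fold), ATP6V0D2 (a proton pump subunit, 5.27-fold), DHRS9 (a retinol dehydrogenase, 5.14-fold), IL7R (5.07-fold), FGF1 (4.93-fold), PSG4 (a pregnancy-specific glycoprotein, 4.44-fold), IL1B (4.38-fold) and AOX1 (aldehyde oxidase, 4.21-fold). Probe sets of SULT1B1 and PSG4 may share sequence with related genes, so these values are uncertain.

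CALCRL, the receptor that binds adrenomedullin or calcitonin gene-related peptide depending on its partner, had the largest fall. Its log2 values were 11.60, 11.22 and 8.62 in Hi cells and 8.84, 9.03 and 11.51 in Lo cells. It fell by 2.48 ± 0.12 (5.56-fold, adjusted p = 1.09e-06), with a difference of -0.69 over all 6 arrays. MMRN1, multimerin of platelets and endothelium, read 10.71, 10.40 and 8.04 against 8.05, 8.28 and 10.58 and fell 5.23-fold. ST3GAL5, which makes the ganglioside GM3, read 11.47, 11.38 and 9.09 against 9.29, 9.36 and 11.30 and fell 4.28-fold. As with the rises, the arrays of replicates 1 and 2 did not overlap and replicate 3 had the opposite order. Also among the 12 largest falls were VWF (5.13-fold), RASGRP3 (an activator of Ras, 4.47-fold), KDR (3.92-fold), the protease MMP10 (3.71-fold), LRRC70 (3.63-fold), GMFG (3.47-fold), PPP1R16B (a phosphatase subunit of endothelium, 3.43-fold), EMCN (3.42-fold) and the lipid transporter ABCA8 (3.31-fold).

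**Figure D2:**
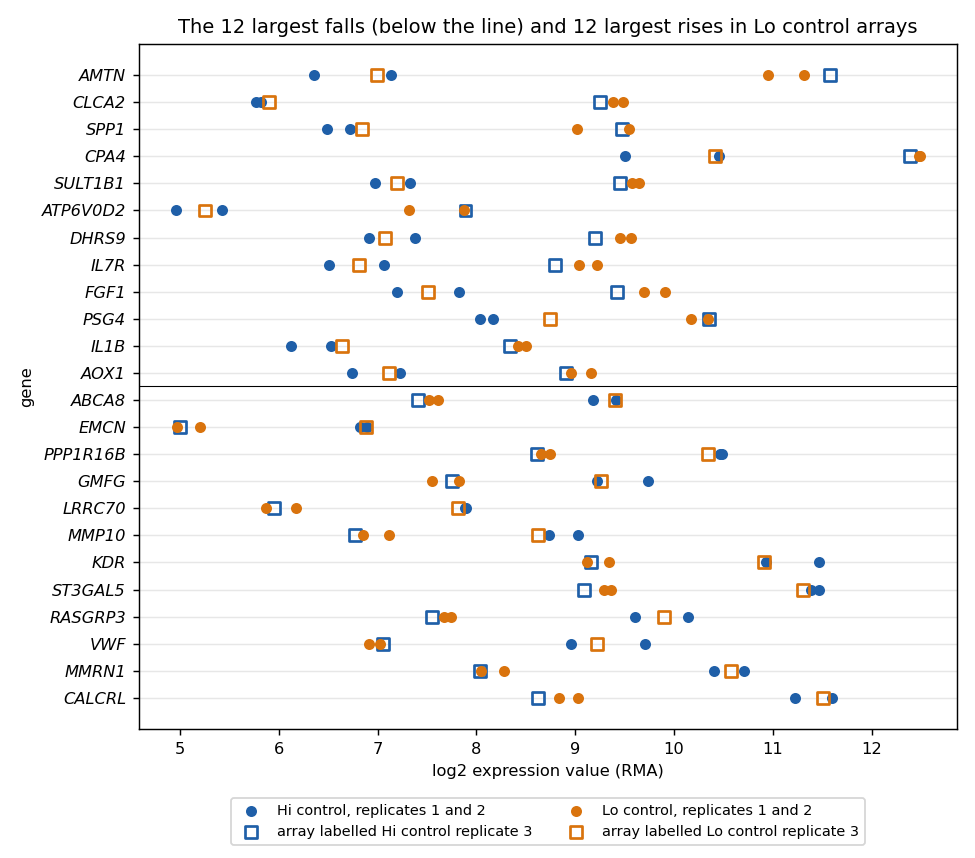
Log2 expression values (x axis) of the 12 genes with the largest rise (upper rows) and the 12 with the largest fall (lower rows) in Lo control arrays. Filled points are replicates 1 and 2 and open squares the arrays labelled replicate 3. The filled points of the 2 groups do not overlap, which was a condition for choosing these genes. Each open square lies with the filled points of the other group or near them. AMTN, for example, has 11.58 in the Hi-labelled array and 6.99 in the Lo-labelled one.

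The promoters of the largest rises and falls are printed because methyl groups in mammalian DNA lie mostly on the cytosine of CG pairs, and these promoters hold few of them. Sequences are from RefSeq (GRCh38.p14) and run from 250 bases before the gene start to 50 after it, with CG in capitals. AMTN (chr4:70518319-70518618, plus strand) and CLCA2 (chr1:86423921-86424220, plus strand) have 0 CG pairs, CALCRL (chr2:187448203-187448502, minus strand) has 1 and MMRN1 (chr4:89879261-89879560, plus strand) has 2.
AMTN: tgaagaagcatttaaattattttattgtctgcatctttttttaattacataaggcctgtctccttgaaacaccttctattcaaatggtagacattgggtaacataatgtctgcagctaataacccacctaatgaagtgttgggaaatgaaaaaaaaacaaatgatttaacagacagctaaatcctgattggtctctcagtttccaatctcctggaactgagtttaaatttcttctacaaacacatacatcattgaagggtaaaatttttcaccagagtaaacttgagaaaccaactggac
CLCA2: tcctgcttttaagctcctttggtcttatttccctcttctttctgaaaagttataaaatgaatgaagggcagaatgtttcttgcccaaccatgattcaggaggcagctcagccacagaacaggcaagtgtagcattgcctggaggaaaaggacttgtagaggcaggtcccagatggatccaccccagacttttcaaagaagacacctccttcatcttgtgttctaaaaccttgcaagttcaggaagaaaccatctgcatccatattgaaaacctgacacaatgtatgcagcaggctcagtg
CALCRL: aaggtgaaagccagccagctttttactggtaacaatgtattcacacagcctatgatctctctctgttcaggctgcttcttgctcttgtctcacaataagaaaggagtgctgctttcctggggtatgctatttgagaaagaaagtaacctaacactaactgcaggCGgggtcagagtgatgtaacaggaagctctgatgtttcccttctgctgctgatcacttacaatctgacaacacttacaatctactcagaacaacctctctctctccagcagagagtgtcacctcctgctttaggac
MMRN1: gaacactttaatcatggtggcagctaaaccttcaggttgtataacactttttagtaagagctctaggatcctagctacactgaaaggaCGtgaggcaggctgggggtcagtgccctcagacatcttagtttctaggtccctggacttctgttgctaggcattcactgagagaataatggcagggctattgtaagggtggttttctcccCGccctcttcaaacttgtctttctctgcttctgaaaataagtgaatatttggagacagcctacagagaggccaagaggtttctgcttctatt
A promoter was found for 14239 of the 18417 genes, with a median of 23 CG pairs, and 22.3% of them had under 8. Of the genes that rose at least 2-fold, 85 had a promoter in the table, with a median of 8 CG pairs, and 49.4% had under 8. For the genes that fell at least 2-fold the median over 39 promoters was 11, and 43.6% had under 8. Over all called genes the medians were 23 for rises and 26 for falls. These are descriptions of sequence, and no methylation was measured here.

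Several endothelial genes were lower in the Lo cells. Of 34 measured genes of endothelial identity 10 fell (29.4% against 3.5% of all genes) and 2 rose (5.88% against 3.67%). With the replicate block 19 fell and 2 rose. The median difference was -0.29 against -0.01 over all genes tested. Without each of the 4 arrays in turn 8 or 9 fell and 0 or 1 rose. VWF, the multimeric protein that binds platelets and factor VIII, read 9.71, 8.96 and 7.06 in Hi cells and 7.03, 6.91 and 9.22 in Lo cells. It fell by 2.36 ± 0.21 (adjusted p = 4.72e-05), and the difference over all 6 arrays was -0.85. KDR, the main signalling receptor for vascular endothelial growth factor, read 11.47, 10.93 and 9.16 against 9.34, 9.12 and 10.91 and fell by 1.97 ± 0.17 (adjusted p = 3.48e-05). EMCN, the sialomucin endomucin, read 6.89, 6.82 and 5.0 against 5.20, 4.97 and 6.88 and fell by 1.77 ± 0.10. In all of them the Lo arrays 1 and 2 and the Hi-labelled array 3 formed the low set. In such bulk RNA, fewer cells of a type and less RNA per cell cannot be told apart.

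The falls among endothelial genes differed in size. PECAM1, the junctional adhesion molecule CD31, read 13.42, 13.33 and 12.67 in Hi cells and 12.71, 12.71 and 13.36 in Lo cells, and fell by 0.67 ± 0.09 (1.59-fold, adjusted p = 0.000722). ROBO4, a guidance receptor of vessels, fell by 1.04 ± 0.10, and CLEC14A, a lectin of endothelial junctions, by 1.01 ± 0.20 (adjusted p = 0.00837, up to 0.0958 without Hi control 2 or Lo control 1). ERG, a transcription factor of the endothelial lineage, fell by 0.30 ± 0.08 and PLVAP, a protein of vesicle diaphragms, by 0.41 ± 0.09. The ERG call was lost without any 1 of the 4 arrays (adjusted p up to 0.262). The PLVAP call was lost without Hi control 1, Hi control 2 or Lo control 2 (adjusted p up to 0.138). CDH5 (VE-cadherin), TEK and TIE1 (angiopoietin receptor and its partner) differed by -0.26, -0.15 and -0.29 and did not pass (adjusted p = 0.262, 0.431 and 0.166). The rises were FLT1, the receptor VEGFR1, by 0.48 ± 0.09 and the peptide gene APLN by 0.46 ± 0.11. The FLT1 call was lost without Hi control 2 or Lo control 2 (adjusted p up to 0.0732) and that of APLN without Hi control 1, Lo control 1 or Lo control 2 (up to 0.249).

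Marker levels of other cell types were read beside these falls. The mean log2 value of 7 endothelial markers was 11.66, 11.38 and 10.61 in Hi cells and 10.69, 10.64 and 11.44 in Lo cells, and 4 of the 7 fell. Sets of 8 genes gave 8.30, 8.33 and 8.47 against 8.49, 8.41 and 8.35 for epithelial and lung carcinoma markers, where KRT7 and KRT8 rose, and 6.97, 6.88 and 7.06 against 7.01, 6.96 and 6.95 for fibroblast and smooth muscle markers, where ACTA2 rose (lost without Hi control 2, Lo control 1 or Lo control 2, adjusted p up to 0.186). The 5 leukocyte markers measured had means of 7.10, 7.10 and 7.29 against 7.20, 7.14 and 7.14 and none passed. Levels within each set were spread widely, and levels of different probe sets are not set against each other here. PTPRC lay at 4.08 to 4.19 and CD68 at 11.81 to 12.21 among leukocyte markers, and DCN at 3.89 to 4.15, LUM at 3.89 to 4.23 and ACTA2 at 11.08 to 11.69 among fibroblast and smooth muscle markers. Among epithelial and lung carcinoma markers EPCAM lay at 5.43 to 5.80, NKX2-1 at 5.51 to 5.76, KRT8 at 11.55 to 12.07 and KRT7 at 11.87 to 12.45. The endothelial markers PECAM1 and CDH5 lay at 12.43 or more in every control array. The part of other cell types in the falls was not tested.

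Vasoactive genes moved in both directions. Of 21 measured, 2 rose (9.52%) and 2 fell (9.52%). Besides CALCRL, its ligand ADM, the vasodilator adrenomedullin, read 10.11, 10.16 and 9.89 in Hi cells and 9.55, 9.78 and 10.28 in Lo cells and fell by 0.48 ± 0.10. That call was lost without Hi control 1, Hi control 2 or Lo control 1 (adjusted p up to 0.128). EDN1, the vasoconstrictor endothelin, read 10.83, 10.63 and 11.26 against 11.47, 11.46 and 10.61 and rose by 0.74 ± 0.11 (adjusted p = 0.00127). NOS3, which makes nitric oxide in endothelium, read 11.23, 11.01 and 10.68 against 10.92, 10.67 and 11.07. Its difference of -0.33 ± 0.18 did not pass (adjusted p = 0.407), but did with the replicate block (adjusted p = 0.0357).

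Among 22 genes of coagulation and fibrinolysis 4 rose (18.2%) and 2 fell (9.09%), with a median of 0.04, and neither fall held without any 1 array. PLAT, tissue plasminogen activator, read 10.45, 10.90 and 11.62 in Hi cells and 11.86, 11.96 and 10.62 in Lo cells and rose by 1.23 ± 0.13 (2.35-fold, adjusted p = 0.00014). PLAU, the urokinase activator, rose by 0.69 ± 0.11. SERPINE2, an inhibitor of thrombin and plasminogen activators, read 6.65, 6.78 and 8.21 against 8.32, 8.12 and 6.93 and rose by 1.51 ± 0.16. F5, coagulation factor V, read 6.21, 6.15 and 7.17 against 7.23, 7.33 and 6.37 and rose by 1.11 ± 0.10. Both activators and an inhibitor of them were thus higher in Lo arrays 1 and 2. TFPI, the inhibitor of the tissue factor pathway, fell by 0.38 ± 0.08, a call lost without any 1 of the 4 arrays (adjusted p up to 0.123).

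Adhesion genes held falls and rises side by side. Of 26 measured, 5 fell (8 with the replicate block) and 4 rose, with a median of 0.01, and the falls numbered 3 or 4 and the rises 1 to 3 without each array in turn. Junction proteins among the falls were PECAM1, CD99, which guides leukocytes through junctions and fell by 0.63 ± 0.09, and ESAM, a tight junction protein, which fell by 0.72 ± 0.11. ESAM read 11.19, 11.07 and 10.40 in Hi cells and 10.45, 10.37 and 11.00 in Lo cells. CLDN1, a claudin typical of epithelial tight junctions, read 9.82, 10.69 and 11.75 against 11.45, 11.78 and 10.37. Its rise of 1.36 ± 0.28 lost its call without Hi control 1 or Lo control 2 (adjusted p up to 0.126). The inducible leukocyte receptors did not pass. ICAM1 read 9.57, 9.89 and 9.50 against 9.27, 9.47 and 9.65, a difference of -0.36 ± 0.12 (adjusted p = 0.111, and 0.0117 with the replicate block). VCAM1 and SELE (E-selectin) lay at 5.79 to 6.0 and 5.07 to 5.32 over all 6 arrays, with differences of 0.04 ± 0.10 and 0.13 ± 0.08.

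Integrins, the receptors for matrix, gave 3 falls and 2 rises among 20, with 2 falls without any 1 of the 4 arrays and 1 rise without Hi control 1, Hi control 2 or Lo control 2. ITGA10, a collagen-binding chain, read 10.03, 9.65 and 8.08 in Hi cells and 8.40, 8.26 and 9.79 in Lo cells and fell by 1.51 ± 0.12 (2.85-fold, adjusted p = 2.44e-05). ITGA11, another collagen-binding chain, fell by 0.64 ± 0.10. ITGB3, the beta chain of the vitronectin receptor, read 11.11, 11.10 and 11.64 against 11.71, 11.69 and 10.94 and rose by 0.60 ± 0.08 (adjusted p = 0.00065). These 2 collagen-binding chains were thus lower and ITGB3 higher in Lo arrays 1 and 2, while 15 of the 20 integrins did not pass and their median was 0.05.

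Interleukin-1 genes and other cytokines were higher in Lo cells. Of 35 cytokines and chemokines 7 rose (20%) and 1 fell (4 with the replicate block), and the list's median was -0.02. The rises numbered 3 without Hi control 1 or without Lo control 2, 4 without Lo control 1 and 6 without Hi control 2. IL1B, a fever-inducing cytokine, read 6.53, 6.12 and 8.34 in Hi cells and 8.42, 8.50 and 6.64 in Lo cells and rose by 2.13 ± 0.17 (adjusted p = 1.89e-05), with a difference of 0.85 over all 6 arrays. IL1A, the related alarmin, read 9.09, 9.19 and 10.12 against 10.18, 10.25 and 8.87 and rose by 1.07 ± 0.09. IL6, an inducer of acute phase proteins, read 6.32, 6.46 and 7.63 against 7.47, 7.63 and 6.53 and rose by 1.16 ± 0.10 (adjusted p = 3.14e-05). As in every called gene, the groups of replicates 1 and 2 did not overlap. For IL1B, IL1A and IL6 each replicate 3 array lay with or near the other group.

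The neutrophil chemokine CXCL8 read 6.98, 7.45 and 8.50 in Hi cells and 8.30, 8.58 and 7.26 in Lo cells and rose by 1.22 ± 0.23 (adjusted p = 0.00638). Its call was lost without Hi control 1 or Lo control 2 (adjusted p up to 0.0818). CXCL1, another neutrophil chemokine, rose by 0.63 ± 0.13, IL18 by 0.54 ± 0.13 and LIF by 0.53 ± 0.14. Without Hi control 1, Lo control 1 or Lo control 2 the calls of these 3 genes were lost, and that of LIF also without Hi control 2 (adjusted p up to 0.144, 0.224 and 0.308). CCL2, the main monocyte chemokine, read 11.27, 11.11 and 11.44 against 11.58, 11.55 and 11.23, and its difference of 0.37 ± 0.11 did not pass (adjusted p = 0.059, and 0.00527 with the replicate block). TNFSF10, the death ligand TRAIL, was the fall of the list, at 6.29, 6.38 and 5.34 against 5.40, 5.59 and 6.07, and fell by 0.84 ± 0.12.

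Of 33 cytokine receptors 4 rose and 2 fell (4 fell with the replicate block), with 2 rises without Hi control 1 or Lo control 2 and 1 fall without any 1 array. IL1RL1, the receptor for interleukin-33, read 6.27, 6.15 and 8.13 in Hi cells and 8.15, 8.10 and 6.33 in Lo cells and rose by 1.92 ± 0.11 (3.78-fold, adjusted p = 2.95e-06). IL7R, a receptor chain best known from lymphocytes, read 6.51, 7.07 and 8.80 against 9.04, 9.22 and 6.81 and rose by 2.34 ± 0.19. IL6R, which binds interleukin-6, fell by 0.57 ± 0.08. Among 19 subunits, targets and feedback genes of NF-kB, the transcription factor of inflammatory signalling, the single call was TNFAIP3 (2 rises and 1 fall with the replicate block). TNFAIP3, the inhibitor A20, read 7.44, 7.58 and 9.26 against 9.47, 9.33 and 7.43 and rose by 1.89 ± 0.12 (3.72-fold, adjusted p = 4.96e-06). The median of that list was 0.02. Of 25 genes of prostanoid and leukotriene metabolism 4 rose (16.0%) and 0 fell, with 1 or 2 rises without each array in turn. PTGS2, the inducible cyclooxygenase, read 8.22, 8.41 and 9.60 against 9.49, 9.67 and 8.40 and rose by 1.26 ± 0.13. The prostaglandin E receptor PTGER4 rose by 0.56 ± 0.11, lost without Hi control 1 or Lo control 2 (adjusted p up to 0.0988), and ALOX5AP, needed for leukotriene synthesis, by 0.51 ± 0.13, lost without any 1 of the 4 arrays (up to 0.26).

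Interferon-stimulated genes held the largest share of rises of the 37 lists. Of 39 measured 11 rose (28.2%; 19 with the replicate block) and 1 fell (2 with the block), with a median of 0.27 against -0.01 over all genes, and 9 or 10 rose without each array in turn. The median was 0.17 without Lo control 2 and 0.24 to 0.28 without any other of the 4. With all 6 arrays the median was 0.07 and none was called. XAF1, a pro-apoptotic interferon target, read 6.86, 6.95 and 8.71 in Hi cells and 8.52, 8.79 and 6.90 in Lo cells and rose by 1.75 ± 0.16 (3.36-fold, adjusted p = 4.72e-05). IFI6, a protein of internal membranes, read 11.62, 11.54 and 13.11 against 12.83, 12.98 and 11.63 and rose by 1.32 ± 0.10 (adjusted p = 1.68e-05). BST2, tetherin, which holds budding virus at the cell surface, read 6.42, 6.34 and 7.42 against 7.47, 7.53 and 6.36 and rose by 1.12 ± 0.11. USP18, which takes the tag ISG15 off proteins, rose by 0.99 ± 0.11. GBP2, a GTPase induced mainly by interferon gamma, was the fall, at 7.38, 7.26 and 6.49 against 6.59, 6.51 and 6.81. Its fall of 0.77 ± 0.14 lost its call without Hi control 1 or Lo control 2 (adjusted p up to 0.0566).

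Promoters of the interferon-stimulated genes that rose are shown for a shared motif (GAAA, any 2 bases, GAAA), the core of the element bound by interferon regulatory factors. IFIT1 (chr10:89392373-89392672, plus strand) holds 2 matches, IFI6 (chr1:27672143-27672442, minus strand) 3 and IFITM1 (chr11:313790-314089, plus strand) 2, in capitals on either strand. Sequences are from RefSeq (GRCh38.p14) over the same window.
IFIT1: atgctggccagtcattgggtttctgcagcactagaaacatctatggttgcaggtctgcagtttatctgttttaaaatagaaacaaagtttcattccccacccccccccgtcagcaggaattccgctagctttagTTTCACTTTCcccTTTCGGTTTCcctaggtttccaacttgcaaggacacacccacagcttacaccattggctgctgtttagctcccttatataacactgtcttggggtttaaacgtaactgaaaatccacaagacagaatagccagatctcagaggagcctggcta
IFI6: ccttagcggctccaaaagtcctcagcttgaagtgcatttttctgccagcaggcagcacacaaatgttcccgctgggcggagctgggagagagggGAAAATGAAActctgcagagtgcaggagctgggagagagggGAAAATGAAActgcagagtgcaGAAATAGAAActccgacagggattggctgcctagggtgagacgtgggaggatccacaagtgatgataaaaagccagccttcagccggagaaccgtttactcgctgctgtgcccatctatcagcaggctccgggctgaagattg
IFITM1: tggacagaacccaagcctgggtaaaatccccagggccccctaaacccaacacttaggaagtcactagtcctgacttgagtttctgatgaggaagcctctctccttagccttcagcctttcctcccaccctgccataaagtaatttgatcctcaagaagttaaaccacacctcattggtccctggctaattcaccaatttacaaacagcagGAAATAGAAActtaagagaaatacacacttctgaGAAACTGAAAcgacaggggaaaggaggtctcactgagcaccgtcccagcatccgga
IFIT1, which binds foreign RNA, read 7.05, 6.93 and 8.87 in Hi cells and 8.50, 9.05 and 7.05 in Lo cells and rose by 1.78 ± 0.26 (adjusted p = 0.00139). IFITM1, an antiviral membrane protein with close relatives, rose by 1.32 ± 0.16. Searched on both strands, the motif was in 433 of 14239 promoters (3.04%). It was in 6 of the 9 promoters of list members that rose (66.7%) and in 13 of the 22 of members that did not pass (59.1%). The motif was thus about as frequent among list members with and without a call. A match of letters is not a binding site.

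Among 14 genes of antigen presentation 3 rose (21.4% against 3.67% of all genes) and 1 fell (7.14% against 3.5%). HLA-DMA, which loads peptides onto class II molecules, read 8.51, 8.63 and 9.68 in Hi cells and 9.71, 10.07 and 8.39 in Lo cells and rose by 1.32 ± 0.15 (adjusted p = 0.000199). HLA-DPA1, a class II chain, read 8.49, 8.39 and 9.15 against 9.20, 9.56 and 8.46 and rose by 0.94 ± 0.16. HLA probe sets may share sequence. NLRC5, an activator of class I genes, fell by 0.65 ± 0.12, lost without Hi control 1 or Lo control 1 (adjusted p up to 0.0871). The 20 complement genes gave 1 rise (5.0%) and 2 falls (10.0%). C3, the central complement component, read 6.28, 6.55 and 7.75 against 7.36, 7.26 and 6.57 and rose by 0.89 ± 0.11. CLU, the complement-binding chaperone clusterin, fell by 0.46 ± 0.08 and CD55, which breaks up complement convertases, by 0.33 ± 0.08, the latter lost without any 1 of the 4 arrays (adjusted p up to 0.229).

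Matrix and matricellular genes were often higher. Of 36 measured 9 rose (25%) and 3 fell (8.33%), with a median of 0.07, and 7 or 8 rose and 1 fell without each array in turn. CCN2, connective tissue growth factor, read 10.56, 11.04 and 12.35 in Hi cells and 12.48, 12.40 and 10.85 in Lo cells and rose by 1.63 ± 0.15 (3.10-fold, adjusted p = 4.72e-05). TGFBI, an adhesion protein of the matrix, read 10.72, 10.86 and 12.05 against 12.12, 12.02 and 10.82 and rose by 1.28 ± 0.11. CCN1, of the same protein family as CCN2, rose by 1.05 ± 0.11, the cross-linking enzyme LOX by 1.29 ± 0.16, fibronectin (FN1) by 0.79 ± 0.10 and the collagen COL12A1 by 0.70 ± 0.08. BGN, the proteoglycan biglycan, was the largest fall of the list, at 10.63, 10.34 and 8.87 against 8.95, 8.86 and 10.39, and fell by 1.58 ± 0.16 (3.00-fold). Fibroblast and smooth muscle markers gave 4 rises and 0 falls among 20, with a median of -0.03, and 2 rises without Hi control 2, Lo control 1 or Lo control 2. POSTN, the matrix protein periostin, rose by 1.53 ± 0.14 and FAP, a cell surface protease, by 0.89 ± 0.12. RGS5, a brake on G protein signalling seen in pericytes, rose by 0.39 ± 0.08, lost without any 1 of the 4 arrays (adjusted p up to 0.086). Collagen I and III genes COL1A1, COL1A2 and COL3A1 differed by -0.02, -0.05 and -0.01.

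Of 28 matrix proteases and inhibitors 3 fell (10.7% against 3.5% of all genes) and 1 rose (3.57% against 3.67%), with 3 rises with the replicate block. MMP10, stromelysin 2, read 9.03, 8.73 and 6.77 in Hi cells and 6.85, 7.12 and 8.62 in Lo cells and fell by 1.89 ± 0.16. ADAM19 fell by 0.54 ± 0.08. ADAMTS1, a protease that cleaves proteoglycans, read 7.90, 7.91 and 8.99 against 9.09, 9.04 and 7.81 and rose by 1.16 ± 0.13. Both signs thus occurred within this enzyme group.

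Growth factor genes mostly moved upward where they were called. Of 36 ligands 7 rose (19.4%) and 2 fell (5.56%), with a median of 0.06 and 4 to 6 rises without each array in turn (4 without Hi control 1 or Lo control 2). FGF1, a fibroblast growth factor, read 7.20, 7.82 and 9.42 in Hi cells and 9.91, 9.70 and 7.51 in Lo cells and rose by 2.30 ± 0.24 (adjusted p = 0.000118). ANGPTL4, an inhibitor of lipoprotein lipase, read 9.05, 9.19 and 10.77 against 10.71, 10.73 and 9.10 and rose by 1.60 ± 0.09 (adjusted p = 2.61e-06). The ErbB ligands HBEGF and NRG1 rose by 0.90 ± 0.15 and 1.10 ± 0.18. INHBA, the activin subunit, rose by 1.68 ± 0.30, lost without Hi control 1 or Lo control 2 (adjusted p up to 0.0571). PGF, the placental growth factor that binds FLT1, read 11.28, 10.87 and 9.96 against 9.94, 9.93 and 11.10 and fell by 1.14 ± 0.15, and BMP6 fell by 0.68 ± 0.12. The falls of PGF and of KDR stood beside the rise of FLT1 within the same ligand and receptor family.

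Wnt and Notch genes gave 4 rises and 3 falls among 35, the falls numbering 1 or 2 without each array in turn. DKK1, a secreted Wnt antagonist, read 10.34, 11.42 and 12.87 in Hi cells and 12.71, 12.79 and 11.34 in Lo cells and rose by 1.87 ± 0.32 (adjusted p = 0.00353). LGR4, the receptor for R-spondins, rose by 0.97 ± 0.16. JAG1, a Notch ligand, read 10.80, 10.66 and 11.45 against 11.45, 11.42 and 10.76 and rose by 0.70 ± 0.08. DLL4, the Notch ligand of arterial and tip cells, read 9.58, 8.90 and 8.10 against 7.98, 7.75 and 8.94 and fell by 1.38 ± 0.24, lost without Hi control 1 or Lo control 2 (adjusted p up to 0.0561). The 2 Notch ligands thus moved in opposite directions.

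Immediate early and MAPK feedback genes gave 5 falls (20.8%) and 3 rises (12.5%) among 24, with 1 rise and 3 falls without Hi control 1 and 3 of each without Lo control 2. DUSP6, the phosphatase of ERK, read 11.94, 11.89 and 11.20 in Hi cells and 11.06, 11.19 and 11.92 in Lo cells and fell by 0.79 ± 0.09. SPRED2, an inhibitor of Ras signalling, read 9.89, 9.79 and 8.93 against 9.05, 9.03 and 9.76 and fell by 0.80 ± 0.08 (adjusted p = 0.000121). The transcription factor KLF6 fell by 0.56 ± 0.08. In contrast DUSP1, a phosphatase of stress kinases, rose by 0.89 ± 0.14, EGR1 by 0.80 ± 0.14 and MYC by 0.53 ± 0.10. The EGR1 call was lost without Hi control 1 (adjusted p = 0.0554), and that of MYC without Hi control 1 or Lo control 1 (up to 0.0823).

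**Figure D3:**
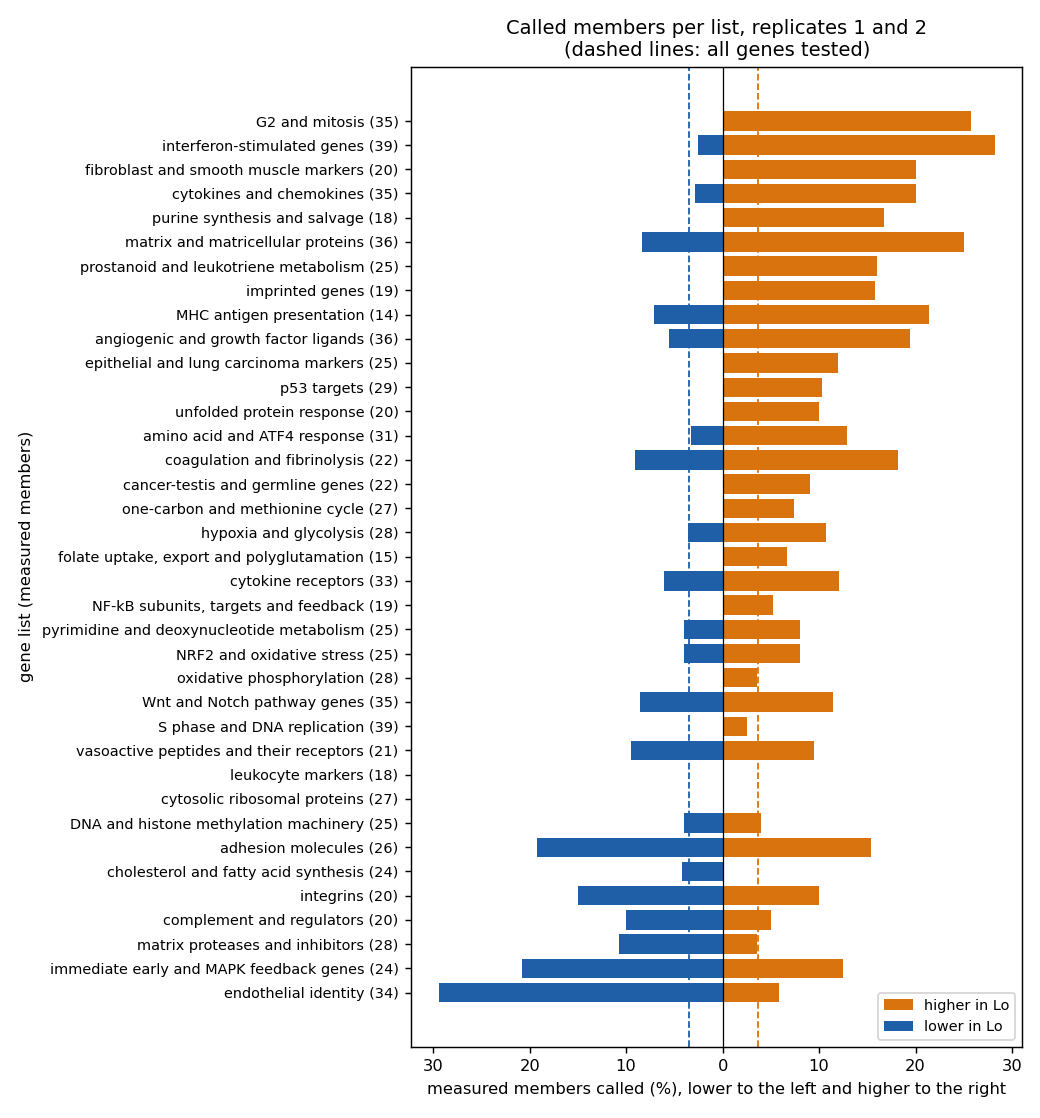
Share of measured members called higher (right) and lower (left) in Lo cells for each of the 37 gene lists, with replicates 1 and 2. Lists are ordered by the share higher minus the share lower, with the number measured in brackets. Dashed lines mark all genes tested, 3.67% higher and 3.5% lower. Interferon-stimulated genes reach 28.2% higher and endothelial identity genes 29.4% lower, and leukocyte markers and ribosomal proteins have 0 calls.

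Of 15 genes of folate uptake, export and polyglutamation 1 rose (2 with the replicate block) and 0 fell, with a median of 0.06. SLC46A1, the proton-coupled folate transporter, read 8.23, 8.21 and 8.58 in Hi cells and 8.65, 8.64 and 8.31 in Lo cells. It rose by 0.42 ± 0.10 (1.34-fold, adjusted p = 0.024), and the call was lost without any 1 of the 4 arrays (adjusted p up to 0.129). SLC19A1, the reduced folate carrier, read 10.15, 10.13 and 10.32 against 10.25, 10.27 and 10.23, a difference of 0.12 ± 0.09 (adjusted p = 0.575). FOLR1, folate receptor alpha, stayed between 5.94 and 6.11 in all 6 arrays, at a difference of -0.07 ± 0.09. FPGS, which adds the glutamates that keep folate in the cell, differed by -0.07 ± 0.11, and GGH, which removes them, by 0.32 ± 0.16 (adjusted p = 0.862 and 0.319). Apart from SLC46A1 the arrays of these genes therefore gave no call in either direction.

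In the one-carbon and methionine cycle 2 of 27 genes rose (7.41%; 4 with the replicate block) and 0 fell, with a median of 0.06. AHCY, which clears S-adenosylhomocysteine, read 11.02, 11.17 and 11.67 in Hi cells and 11.62, 11.77 and 11.16 in Lo cells and rose by 0.60 ± 0.10 (1.51-fold, adjusted p = 0.004). Its call was lost without Hi control 1 or Lo control 2 (adjusted p up to 0.0566). MTHFD2, a mitochondrial folate dehydrogenase, read 10.47, 10.74 and 11.05 against 11.07, 11.17 and 10.66 and rose by 0.51 ± 0.13, lost without Hi control 1, Lo control 1 or Lo control 2 (up to 0.299). SHMT1 and SHMT2, the serine hydroxymethyltransferases, differed by -0.05 ± 0.17 and 0.08 ± 0.10. MTR, methionine synthase, differed by -0.20 ± 0.11 and MAT2A, which makes S-adenosylmethionine, by 0.06 ± 0.14. None of these 4 passed (adjusted p = 0.944, 0.803, 0.396 and 0.911).

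Purine genes gave 3 rises (16.7%; 6 with the replicate block) and 0 falls among 18, with a median of 0.17. ADA, which deaminates adenosine, read 10.46, 10.54 and 11.41 in Hi cells and 11.32, 11.46 and 10.51 in Lo cells and rose by 0.90 ± 0.09 (1.86-fold, adjusted p = 0.000136). The call of ADA was the single one of this list kept without each array in turn. PPAT, the entry enzyme of purine synthesis, rose by 0.48 ± 0.12 and IMPDH2, on the way to guanine nucleotides, by 0.44 ± 0.11, with adjusted p up to 0.22 and 0.221 and no call without any 1 of the 4 arrays. The folate-dependent purine enzymes GART and ATIC differed by 0.20 ± 0.13 and 0.35 ± 0.10 (adjusted p = 0.491 and 0.0606), and ATIC passed with the replicate block (0.00833).

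Of 25 genes of pyrimidine and deoxynucleotide metabolism 2 rose (6 with the replicate block) and 1 fell (2 with the block). DPYD, which breaks down uracil and thymine, read 10.98, 10.91 and 10.30 in Hi cells and 10.48, 10.48 and 10.92 in Lo cells and fell by 0.47 ± 0.08 (adjusted p = 0.00286). RRM2, the small subunit of ribonucleotide reductase, rose by 0.76 ± 0.18 and SAMHD1, which degrades deoxynucleotides, by 0.39 ± 0.11. Both lost their calls without any 1 of the 4 arrays (adjusted p up to 0.156 and 0.231). TYMS, thymidylate synthase and a target of pemetrexed, read 11.19, 11.51 and 11.57 against 11.44, 11.73 and 11.53, a difference of 0.23 ± 0.16 (adjusted p = 0.539). Replicates 1 and 2 of the groups overlapped for TYMS.

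Writers and readers of DNA and histone methylation gave 1 rise and 1 fall (3 with the replicate block) among 25, with a median of -0.09. DNMT1, the maintenance methyltransferase, read 10.56, 10.59 and 10.85 in Hi cells and 10.94, 10.77 and 10.66 in Lo cells, a difference of 0.28 ± 0.10 (adjusted p = 0.126). UHRF1, which brings DNMT1 to newly made DNA, rose by 0.54 ± 0.12, and its relative UHRF2 fell by 0.50 ± 0.12. Neither call held without Hi control 1, Lo control 1 or Lo control 2 (adjusted p up to 0.205 and 0.243), and the UHRF2 difference was -0.32 without Hi control 1. Cancer-testis and imprinted genes are often silenced by methylation. Of 22 cancer-testis and germline genes 2 rose (9.09% against 3.67% over all genes), MAGEB2 by 0.51 ± 0.09 and TEX14 by 0.56 ± 0.11, with 0 falls and a median of 0.00. TEX14 lost its call without Hi control 1, Lo control 1 or Lo control 2 (adjusted p up to 0.0875). Of 19 imprinted genes, expressed from a single parental copy, 3 rose (15.8%) and 0 fell (1 fell with the replicate block), with a median of 0.02. PEG10 read 10.68, 11.00 and 11.64 against 11.59, 11.74 and 10.89 and rose by 0.83 ± 0.13, PLAGL1 rose by 0.63 ± 0.12 and MEST by 0.35 ± 0.09. PLAGL1 lost its call without Hi control 1, Lo control 1 or Lo control 2 and MEST without Hi control 1, Hi control 2 or Lo control 2 (adjusted p up to 0.103 and 0.299), and MEST differed by 0.23 without Lo control 2.

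Some cell division genes were higher in untreated Lo cells. All 35 measured genes of G2 and mitosis had a positive difference, 9 rose (25.7%; 17 with the replicate block) and 0 fell, with a median of 0.35 and of 0.24 over all 6 arrays. There was 1 rise without Hi control 1, 4 without Hi control 2, 2 without Lo control 1 or without Lo control 2, and 0 without variance moderation. The median was 0.17 without Hi control 1 and 0.29 to 0.52 without any other of the 4. CCNB1, cyclin B, read 8.79, 8.69 and 9.20 in Hi cells and 9.43, 9.47 and 9.04 in Lo cells and rose by 0.71 ± 0.14 (1.63-fold, adjusted p = 0.00776). CDC20, which activates the ligase that ends metaphase, read 10.92, 10.93 and 11.45 against 11.73, 11.60 and 11.01 and rose by 0.74 ± 0.14. HMMR, a spindle protein, rose by 0.78 ± 0.14, the kinase AURKA by 0.52 ± 0.12, topoisomerase TOP2A by 0.48 ± 0.13 and the checkpoint kinase BUB1 by 0.43 ± 0.12. The call of CCNB1 was lost without Hi control 2 or Lo control 2, that of CDC20 without Hi control 1 or Lo control 1, that of HMMR without Hi control 1 and those of AURKA, TOP2A and BUB1 without at least Hi control 1, Lo control 1 and Lo control 2 (adjusted p up to 0.066, 0.0672, 0.0576, 0.198, 0.321 and 0.361). Of 39 genes of S phase and DNA replication 1 rose (7 with the replicate block) and 0 fell, with a median of 0.21 that was 0.09 without Hi control 1. GINS2, part of the replicative helicase, rose by 0.47 ± 0.12, lost without Hi control 1, Lo control 1 or Lo control 2 (adjusted p up to 0.334).

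Stress lists held larger shares of rises than the 3.67% over all genes. Of 29 p53 targets 3 rose (10.3%) and 0 fell (1 fell with the replicate block), with a median of 0.14. TP53I3, an oxidoreductase induced by p53, read 9.35, 9.47 and 10.01 in Hi cells and 10.06, 10.24 and 9.41 in Lo cells and rose by 0.74 ± 0.09 (adjusted p = 0.000474). The death receptor FAS rose by 0.43 ± 0.10 and POLH, a polymerase that copies past lesions, by 0.37 ± 0.09, both lost without at least Hi control 1, Hi control 2 and Lo control 2 (adjusted p up to 0.155 and 0.218). The amino acid and ATF4 response list had 31 genes, of which 4 rose (12.9%) and 1 fell (3 fell with the replicate block). STC2, stanniocalcin, rose by 0.91 ± 0.13, PSPH, the last enzyme of serine synthesis, by 0.47 ± 0.08 and DDIT3, the transcription factor CHOP, by 0.67 ± 0.14. PSPH lost its call without Lo control 2 (adjusted p = 0.0558) and DDIT3 without Hi control 1, Lo control 1 or Lo control 2 (up to 0.156). SLC7A11, the cystine importer, read 11.53, 11.91 and 10.98 against 10.73, 11.04 and 11.79 and fell by 0.84 ± 0.19, lost without Hi control 2 or Lo control 1 (up to 0.161). Of 20 genes of the unfolded protein response 2 rose (10%; 5 with the replicate block), the chaperone HSPA5 by 0.59 ± 0.09 and the transcription factor XBP1 by 0.52 ± 0.13, the latter lost without any 1 of the 4 arrays (adjusted p up to 0.224).

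Of 25 NRF2 and oxidative stress genes 2 rose and 1 fell (2 fell with the replicate block). AKR1B10, an aldo-keto reductase typical of lung carcinoma cells, read 5.51, 5.20 and 7.57 in Hi cells and 7.25, 7.45 and 5.54 in Lo cells and rose by 2.00 ± 0.30 (3.99-fold, adjusted p = 0.00169). Its probe set may share sequence with related reductases. ME1, malic enzyme, rose by 0.49 ± 0.12, lost without any 1 of the 4 arrays (adjusted p up to 0.231). AKR1B10 also counts among 25 epithelial and lung carcinoma markers, of which 3 rose and 0 fell, the others being keratins KRT7, by 0.53 ± 0.08, and KRT8, by 0.44 ± 0.09. KRT8 lost its call without Hi control 1, Lo control 1 or Lo control 2 (adjusted p up to 0.106). Of 24 genes of cholesterol and fatty acid synthesis 0 rose and 1 fell (2 and 3 with the replicate block). SCD, which desaturates fatty acids, read 10.63, 10.74 and 9.88 against 9.92, 9.91 and 10.83 and fell by 0.77 ± 0.09. Of 28 hypoxia and glycolysis genes 3 rose and 1 fell (5 and 2 with the replicate block), with the glucose transporter SLC2A1 higher by 0.70 ± 0.10 and the carbonic anhydrase CA12 by 0.68 ± 0.10. Oxidative phosphorylation gave 1 rise among 28 (2 with the replicate block), SDHA of complex II by 0.45 ± 0.11, lost without any 1 of the 4 arrays (adjusted p up to 0.217). None of the 27 cytosolic ribosomal proteins and none of the 18 leukocyte markers passed, with 2 rises in the latter with the replicate block.

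The arrays treated with pemetrexed gave Lo minus Hi differences that share no array with those of the controls. The tests do share arrays, since each fit took its spread from treated and control arrays together. Fitted over all 12 arrays, 4107 genes (22.3%) were called in the treated contrast, 2079 higher in Lo (11.3%) and 2028 lower (11.0%). The spread in that fit includes the arrays labelled control replicate 3, and without them 5106 genes were called. Counts and p-values in this paragraph are from the fit over 12 arrays. Of the 1320 control calls 1254 had the same sign among treated arrays and 66 the opposite one. Called with the same sign were 898, which is 68.0% of the control calls and 21.9% of the treated calls, and 14 were called with the opposite sign. Across the 18417 genes the 2 sets of differences had a Pearson r of 0.701, a description over genes that share arrays and are not independent. AMTN was higher by 4.88, CLCA2 by 4.30 and SPP1 by 2.87 in treated Lo than in treated Hi cells, and CALCRL was lower with -3.58, MMRN1 with -3.44 and VWF with -2.46, all called (adjusted p = 0.0135, 0.00597, 0.0146, 0.00381, 0.003 and 0.0136). The Lo and Hi cultures thus differed in these genes in the same direction with the drug as without it.

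**Figure D4:**
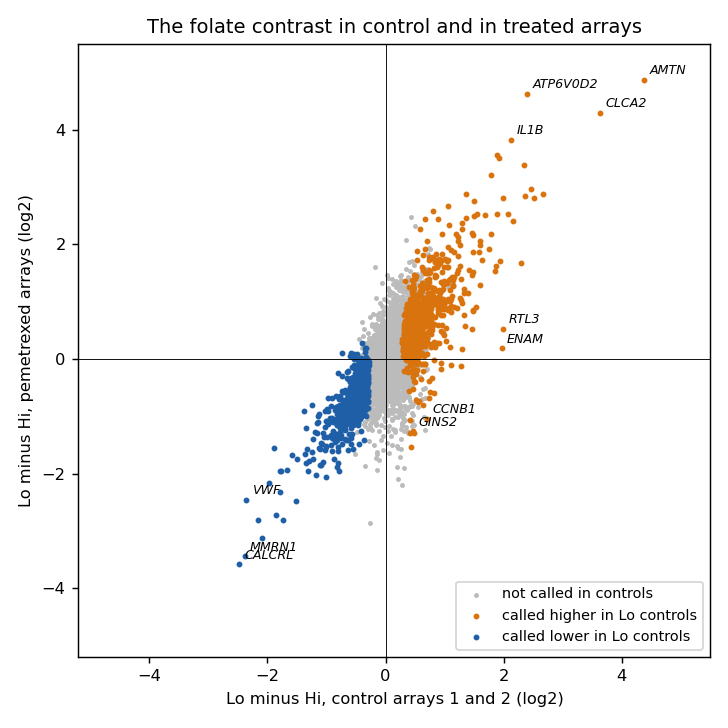
Lo minus Hi difference in log2 for each gene with control replicates 1 and 2 (x axis) and with the 3 pemetrexed replicates (y axis). Orange and blue points are genes called higher or lower in Lo controls and grey points the other genes tested. Most coloured points lie in the upper right or lower left, and CCNB1 and GINS2 lie among those below 0 in treated arrays.

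The size of the contrast differed between treated and control arrays for 767 genes (4.16%) by a test of that difference in the 10 arrays, of which 225 were control calls, 157 with a larger contrast in the treated arrays and 68 with a smaller or opposite one. Of 35 cytokines and chemokines 8 had a called difference. IL1A, IL1B and LIF were among those with a larger contrast in treated arrays, while CXCL8, IL6, CXCL1 and IL18 did not pass (adjusted p = 0.13, 0.338, 0.603 and 0.497) and CCL2 had the opposite sign there. IL1B differed by 3.83 in treated arrays and 2.13 in controls, a difference of 1.70 (adjusted p = 0.0011), and IL1A by 2.33 against 1.07 (difference 1.26, adjusted p = 0.000247). The receptor gene IL1RL1 and TNFAIP3, an inhibitor of NF-kappaB signalling, differed by 3.51 and 3.55 against 1.92 and 1.89 (both adjusted p = 0.000247). Division genes turned round. Of the 35 genes of G2 and mitosis 34 had a negative difference in treated arrays. For 31 the difference from the controls was called. In the fit over 12 arrays 31 were called lower in treated Lo cells, as were 11.0% of all genes. CCNB1 differed by -1.04 in treated arrays against 0.71 in controls (adjusted p of the difference 0.000386). In the fit over 12 arrays interferon-stimulated genes gave 21 rises and 2 falls among 39 in treated arrays, with a median of 0.48. Endothelial identity genes gave 17 falls and 0 rises among 34 there, with a median of -0.49. Over all genes 11.3% were called higher and 11.0% lower in that fit.

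**Figure D5:**
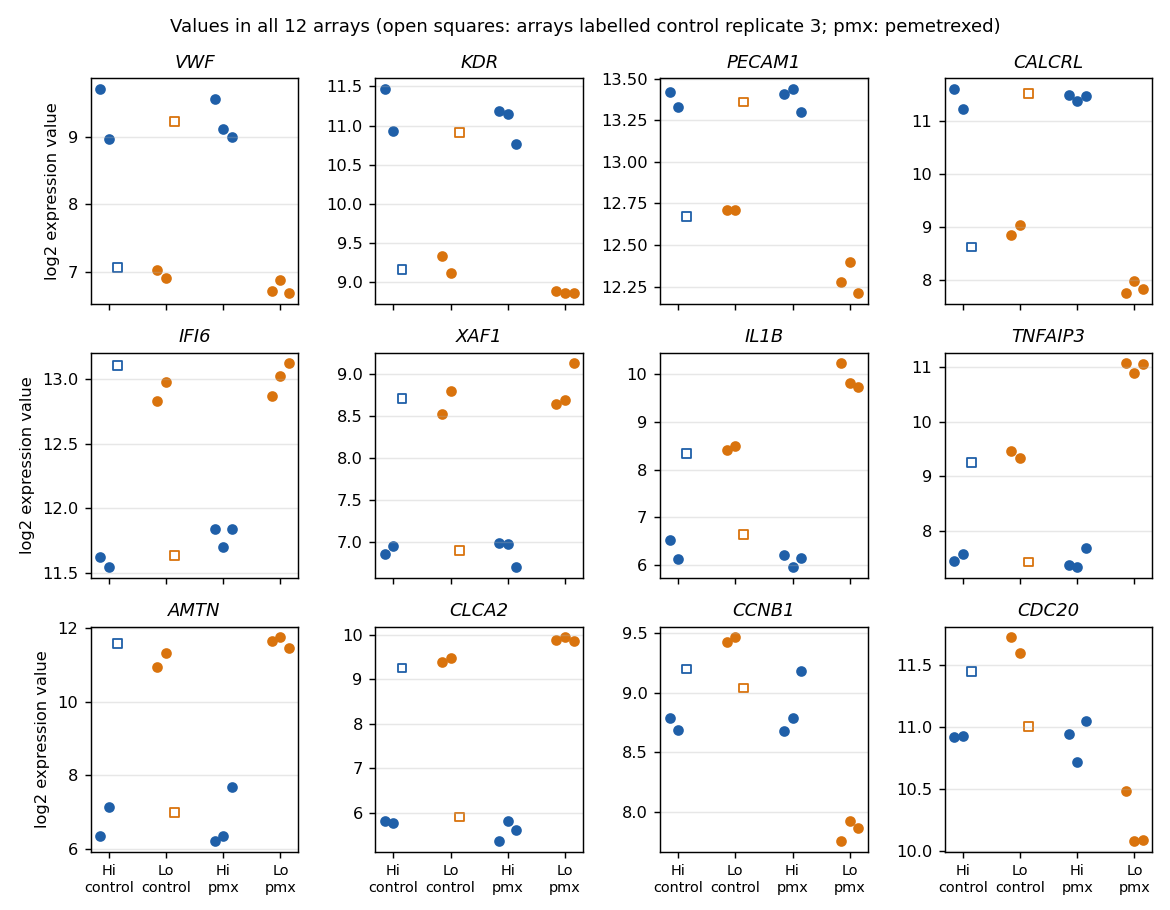
Log2 expression values of 12 genes in all 12 arrays, grouped as Hi control, Lo control, Hi pemetrexed and Lo pemetrexed (pmx), each panel with its own y axis. Open squares are the arrays labelled replicate 3 of the controls. For VWF the treated Lo arrays lie with Lo controls 1 and 2, whereas CCNB1 and CDC20 are higher in Lo than in Hi controls 1 and 2 and lowest in treated Lo arrays.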

How the data were processed

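Total RNA had been labelled with biotin and hybridised to whole-transcript arrays. The authors deposited 1 log2 value for each probe set, made with RMA in Partek 6.5, per the submitters' processing notes. Its settings are not given in the sources used here, and RMA makes arrays similar in overall level, so a shift shared by all genes would not be seen. The table held 33297 probe sets, of which 19460 had 1 gene symbol, 1754 several and 12083 none listed. The Entrez identifiers of 19429 were found in RefSeq. Where a gene had several probe sets (769 genes), the one with the highest mean was used, which gave 18417 genes. No filter on dim genes was applied, and precision is limited by how many arrays there are.

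In R 4.3.3, lmFit and eBayes of limma 3.58.1 fitted one mean per group to all 12 arrays (8 residual degrees of freedom) or to the 10 without the arrays labelled control replicate 3 (6 residual degrees of freedom). The treated contrast used 12 arrays and the difference between contrasts 10. Tests were two-sided. Statistical steps were tested on simulated data.

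Genes named by rule, 123 in all, were the 12 largest rises and falls among calls with replicates 1 and 2 whose arrays do not overlap, up to 3 called members of each of 37 lists by p, and a fixed set of folate and inflammation genes, some of which are not reported here. A further 56 were named after their values were seen, among them IFIT1, IFITM1, ROBO4, FN1, EGR1, AURKA, CXCL1, INHBA and the genes named only in the closing observations. Members, lists and the omission of the replicate 3 arrays were chosen with earlier results of these data known.

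In the 10 arrays each of 13 pairs with the same number had deviations from the group means that correlated at over 0.1 (0.115 to 0.543). In all 12 arrays 11 of 18 pairs did (-0.656 to 0.514). The 13 values are not independent, since the deviations of 2 arrays in a control group mirror each other. Replicate numbers were treated as a possible pairing, which the labels do not state. The main calls used no block, and the replicate block was run as an alternative. Alternatives were the replicate block, fitting only the groups compared, renewed quantile normalization, centring, a minimum mean of 6, the mean of probe sets, an intensity trend, no variance moderation, a 2-fold minimum and leaving out each array.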

Additional observations from a re-analysis of the deposited data

Results flagged for a closer look

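A test of the difference between contrasts picked out 53 of the named genes, whose Lo minus Hi contrast differed between treated arrays and control arrays 1 and 2 (limma, 10 arrays, adjusted p between 0.000104 and 0.0465, over all genes). Values in brackets are the treated contrast minus the control contrast in log2. In 24 genes the Lo cells were higher in both and the treated contrast was larger. These were ABCA12 (1.52), ADAMTS1 (0.71), ATP6V0D2 (2.24), C3 (1.55), CLCA2 (0.67), DDIT3 (1.78), EGR1 (1.78), EHF (1.00), FAS (0.60), HBEGF (0.75), IL1A (1.26), IL1B (1.70), IL1RL1 (1.60), IL7R (1.05), ITGB3 (0.51), JAG1 (0.67), LIF (1.20), MUC13 (0.91), PTGS2 (0.73), SERPINB7 (1.42), SERPINE2 (1.00), SLC2A1 (0.53), TNFAIP3 (1.66) and TP53I3 (0.81). The p53 targets and the transcription factors EGR1 and DDIT3 stand here beside the interleukin-1 genes. In 10 genes the Lo cells were lower in both and the treated contrast was larger, namely ABCA8 (-1.09), CALCRL (-1.11), CLEC14A (-1.04), DPYD (-0.64), ERG (-0.56), ITGA10 (-0.96), LRRC70 (-0.86), MMRN1 (-1.06), SMAD1 (-0.64) and ST3GAL5 (-1.02).

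In 16 genes the estimates of the contrast had opposite signs in treated and control arrays. These were APLN (-0.78), AURKA (-1.23), BUB1 (-1.96), CCL2 (-0.84), CCNB1 (-1.75), CDC20 (-1.43), EDN1 (-1.13), FABP4 (-1.21), GGH (-0.86), GINS2 (-1.73), HLA-DPA1 (-1.12), HMMR (-1.11), ICAM1 (0.88), RRM2 (-1.34), TOP2A (-1.77) and UHRF1 (-1.29). Not all were called on both sides. CCL2, GGH and ICAM1 were not called in the controls. APLN, EDN1, FABP4, HLA-DPA1, HMMR and RRM2 were not called in treated arrays (limma, 12 arrays, adjusted p from 0.0661 to 0.872). Cell division genes make up many of the 16, with estimates for Lo cells above Hi cells in the controls and below them in the treated arrays. In the remaining 3 the treated contrast was smaller, DPP4 (-0.89), KLF6 (0.43) and SPRED2 (0.56). Groups of 3 arrays were not tested for single outlying values.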

How the results depend on the processing

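Results with all 6 control arrays stayed at 0 calls under every alternative run except leaving out both arrays labelled replicate 3, which gave 1320. The count with replicates 1 and 2 was 2422 with the replicate block, 756 without variance moderation and 152 with a 2-fold minimum. It ranged from 549 to 858 when 1 of the 4 arrays was left out, where a group of 1 array is assumed to vary like the others. Under the other alternatives it lay between 1238 and 1346, and none of the 1320 genes changed sign under the alternatives to that result named so far. Leaving out 1 array could not turn a sign, since replicates 1 and 2 of the groups overlapped in 0 of these genes. With all 6 control arrays 1318 kept their sign, in means that include replicates 1 and 2. Of the 162 named calls 108 held without each of the 4 arrays, 46 were lost without Hi control replicate 1, 29 without Hi control replicate 2, 38 without Lo control replicate 1 and 45 without Lo control replicate 2, and 54 without variance moderation. The replicate block ended none of them and, among the named genes, added ATIC, CCL2, ICAM1 and NOS3. The treated contrast gave 2855 to 5106 calls. Rescaling moved the median of all genes by at most 0.02. Genes whose sign turned when 1 array was left out had not passed: MAT2A ranged from -0.043 to 0.159, SHMT1 from -0.242 to 0.14, SHMT2 from -0.036 to 0.201 and VCAM1 from -0.061 to 0.133. Detection limits are not known, since no background signal was used here.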

Other observations

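The genes below were named after their values were seen. Neighbouring protocadherin beta genes, which encode adhesion proteins of a clustered family, were lower together in Lo cells. Of 18 measured 9 fell and 0 rose with replicates 1 and 2, where 3.5% of all genes fell and 3.67% rose. Of the 18, 17 were below 0 and the median was -0.52, while replicate 3 as labelled gave a median of 0.42. In treated arrays the median was -0.53 and 10 were called lower, as were 11.0% of all genes there. PCDHB14 read 8.74, 9.05 and 7.86 in Hi cells and 7.78, 8.12 and 8.53 in Lo cells and fell by 0.95 ± 0.19, PCDHB10 fell by 0.74 ± 0.12 and PCDHB5 by 0.75 ± 0.20. The PCDHB14 call was lost without Hi control 2 or Lo control 1 and that of PCDHB5 without any 1 of the 4 arrays (adjusted p up to 0.106 and 0.268). Probe sets of this family may share sequence. The 12 protocadherin alpha genes measured, in the same cluster, gave 0 calls with a median of -0.19, and all 12 were below 0. Their median was also -0.19 in replicate 3 as labelled, unlike that of the beta genes, and -0.09 in treated arrays. The nearby endothelial protocadherin PCDH12 fell by 1.25 ± 0.19. Over 14413 windows of 20 neighbouring genes with a mean of at least 6, medians lay between -0.09 and 0.07 from the 5th to the 95th percentile, and the lowest, -0.437, lay on chromosome 5 in this cluster.

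TCN2, transcobalamin, which carries vitamin B12 into cells, was lower in Lo cells. It read 11.89, 11.95 and 11.02 in Hi cells and 10.83, 11.06 and 12.01 in Lo cells and fell by 0.98 ± 0.09 (1.97-fold, adjusted p = 4.72e-05), with -1.12 in treated arrays. Vitamin B12 is the cofactor of methionine synthase, whose gene MTR did not pass. Some of the genes with large rises, chosen one by one and not as a list, follow. NRCAM, NLGN1, RELN, NEGR1 and CDH10 (neuronal adhesion and guidance) rose by 1.06, 1.46, 1.25, 1.26 and 1.14, the epsilon globin HBE1 and its neighbours OR51B4 and OR51B5 by 1.11, 1.08 and 0.76, and the epithelial genes EHF, MUC13, ABCA12 and SERPINB7 by 1.19, 1.05, 1.37 and 1.79. Of the 25 measured epithelial and lung carcinoma markers 22 did not pass, and their median was 0.01. OR51B5 lost its call without Hi control 2 or Lo control 2 (adjusted p up to 0.0902). SMAD1, which carries bone morphogenetic protein signals, fell by 1.32 ± 0.11, the costimulatory receptor CD40 by 1.12 ± 0.14, the hyaluronan synthase HAS2 by 1.33 ± 0.16 and the pro-apoptotic BCL2L11 by 1.35 ± 0.13. FABP4 and DPP4 rose by 1.10 ± 0.11 and 1.10 ± 0.14 in controls and differed by -0.11 and 0.21 in treated arrays.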
